A study of Mus musculus with 58 samples.

Results

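Oxidative phosphorylation (OXPHOS) makes ATP at the inner mitochondrial membrane. NADH dehydrogenase (complex I), succinate dehydrogenase (complex II), the cytochrome bc1 complex (complex III) and cytochrome c oxidase (complex IV) pass electrons to oxygen and pump protons, complex II excepted, and ATP synthase (complex V) uses the proton gradient. Its subunits come from both genomes of the cell. Most are encoded in the nucleus and imported, and a small set, the core of complexes I, III, IV and V, is encoded in mitochondrial DNA, transcribed there as long polycistronic RNAs and cut into single mRNAs. Microglia, the resident macrophages of the brain, are known to shift between oxidative metabolism and glycolysis with inflammatory activation.

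The genes described here are 97 protein-coding genes of the 47643 genes listed for 34 mouse microglia libraries (21620 of them protein-coding). They were chosen by symbol, from the Nduf, Sdh, Uqcr, Cox4 to Cox8 and Atp5 families for the nuclear genes and from mt-Nd, mt-Co, mt-Cytb and mt-Atp for the mitochondrial ones, without pseudogenes and antisense genes. Of the 84 nuclear genes, 35 belong to complex I, 4 to complex II, 8 to complex III, 20 to complex IV and 17 to complex V. Ndufa4 and Ndufa4l2, named as complex I genes, were placed in complex IV. The 13 mitochondrial genes hold 7 of complex I, 1 of complex III, 3 of complex IV and 2 of complex V. Counts on mt-Nd4l, mt-Co3, mt-Atp6, mt-Atp8 and Cox8c were 0 in every library. Cox8a, the general isoform of complex IV subunit VIII, and Cox6a2, the heart and muscle isoform of subunit VIa, are part of the nuclear set.

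The study asks how microglia respond to tau and what NF-κB signalling through IKKβ, the kinase encoded by Ikbkb, adds to it. In the first of 4 comparisons, wild-type primary microglia were given full-length tau fibrils at 2 µg/ml for 24 h (4 libraries) or vehicle (4 libraries). The second set microglia taken from brains of adult male mice with the P301S human tau transgene (PS19, 4 libraries, 10.98 months old) against male non-transgenic mice (NTG, 4 libraries, 10.98 or 11.18 months old), sorted on magnetic beads for CD11b, which other myeloid cells carry too. The third compared primary IkbkbCA microglia (5 libraries), in which a constitutively active IKKβ is switched on by Cre, with IkbkbWT (5 libraries), and the last compared primary Ikbkb-/- microglia (4 libraries), in which Cre deletes a floxed Ikbkb, with Ikbkb+/+ (4 libraries). By the methods of the study, both Cre groups carried Cx3cr1-CreERT2 on one allele, knocked into the microglial gene Cx3cr1, and their controls carried the floxed allele without Cre. Cases and controls alike received 4-hydroxytamoxifen, so in these comparisons the Cre allele and the Ikbkb genotype cannot be told apart. Primary cultures were shaken off mixed glia grown from hippocampi and cortices of newborn pups. No library served in more than one comparison.

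Libraries were made with a 3′ end kit that gives about 1 tag per polyadenylated transcript, so counts do not grow with gene length. Levels are given as CPM, counts scaled to a common library size within each comparison, and a gene was called at a false discovery rate (FDR) under 0.05 by the quasi-likelihood test of edgeR over all genes tested. Fold changes are on the log2 scale, case over control, with their standard error (SE). Total counts were 1672052 to 8349128 per library. Ikbkb was at 18.8 to 25.4 CPM in Ikbkb-/- and 45.9 to 55.0 CPM in Ikbkb+/+ (log2 fold change -1.20 ± 0.12 SE, FDR = 6.3e-07), and at 45.0 to 59.8 CPM in IkbkbCA against 41.2 to 58.6 CPM in IkbkbWT, where 3′ tags need not cover the active transgene. Cx3cr1, which carries the Cre, was lower in IkbkbCA (-0.56 ± 0.092 SE, FDR = 0.00153) and in Ikbkb-/- (-1.16 ± 0.12 SE, FDR = 1.6e-06). Microglia and macrophage markers (11 genes) were detected in every group. Markers of other cells moved with some groups. With tau fibrils, the summed level of 8 neuronal markers was 201 to 256 CPM against 383 to 467 CPM with vehicle (5 of 8 fell), that of 7 astrocyte markers 345 to 440.0 CPM against 641 to 681 CPM (4 of 7 fell) and that of 7 oligodendrocyte markers 297 to 359 CPM against 500.3 to 603 CPM (2 of 5 tested fell). Endothelial and mural markers summed to 85.9 to 101 CPM against 138 to 176 CPM (1 of 2 tested fell), with Cldn5 and Vtn at 0 in both groups. The 11 microglia and macrophage markers summed to 12445 to 14167 CPM against 5615 to 7100 CPM (7 of 11 rose), and 6 markers of border-associated macrophages summed to 485 to 1026 CPM in IkbkbCA against 1418 to 1983 CPM in IkbkbWT. The labels do not say whether libraries of a group came from separate cultures, so p-values measure the spread between these libraries.

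For a mitochondrial transcript, whether a tag can be counted can depend on the end of the gene. The nuclear genome holds copies of parts of the mitochondrial genome, and a tag that maps equally well to both is not assigned to either. The last 50 bases of 4 mitochondrial genes are shown here for that reason, taken from the GENCODE M21 transcripts on GRCm38. They are all in lower case, since each run is either wholly shared or not shared. The ends of mt-Cytb (chrM:15239-15288, plus strand), which encodes cytochrome b of complex III, and of mt-Nd1 (chrM:3658-3707, plus strand), a core subunit of complex I, are in no other annotated gene. The end of mt-Co1 (chrM:6823-6872, plus strand), the catalytic subunit of complex IV, is also in Gm29216, and that of mt-Co2 (chrM:7647-7696, plus strand), which takes electrons from cytochrome c, is also in Gm13341.
mt-Cytb: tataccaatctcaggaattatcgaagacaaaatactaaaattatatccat
mt-Nd1: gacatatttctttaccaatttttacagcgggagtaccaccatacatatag
mt-Co1: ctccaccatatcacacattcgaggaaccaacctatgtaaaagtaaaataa
mt-Co2: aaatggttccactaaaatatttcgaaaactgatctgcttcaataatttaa

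Over the last 300 bases, 100% of the 50-base windows of mt-Co1 and of mt-Co2 were shared with another gene, as were 99.6% of mt-Co3 and 98.8% of mt-Atp6, mt-Nd3 and mt-Nd4l. None of the windows of mt-Nd1, mt-Nd4, mt-Nd6, mt-Cytb and mt-Atp8 was shared, against 31.9% for mt-Nd2 and 1.99% for mt-Nd5. mt-Nd4, mt-Cytb and mt-Nd1, the mitochondrial genes with the highest levels, thus shared no end window with another annotated gene. Over its full length, mt-Nd4 shared 62.2% of its windows with Gm28439. Levels did not follow windows shared with annotated genes alone. mt-Atp8, with none shared there, overlaps mt-Atp6 on the same strand and had 0 counts in every library. mt-Co1, at 100%, averaged 408 CPM. Copies outside annotated genes were not searched. Gm28661 and Gm10925, which share windows with mt-Co2 and mt-Atp6 on either side of mt-Atp8, lie at chr1:24614885-24615565 and chr1:24613974-24614651, with a gap between. The reason for these levels was not tested. Copies took few counts themselves, with at most 11 on Gm29216 and 12 on Gm28438 in any library. Among all 97 genes, 13 had over 40% of their end windows shared, with Ndufb6 (64%) and Atp5h (57.6%) the highest of the nuclear ones, and 47 had none. Levels of these 13 genes are uncertain, and their differences between groups rest on the tags that could be assigned. Not all of this sharing is with copies elsewhere. Ndufb6 shared windows only with Smim27, which overlaps it in antisense, and Atp5o with genes that overlap it. Atp5j (with Gabpa), Ndufb5 (with Mrpl47), Ndufb6 (with Smim27), Atp5d (with Cbarp) and Cox5a (with Gm26631) overlap an exon of a gene on the other strand, and the sources used here do not say whether counting used the strand.

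**Figure D1:**
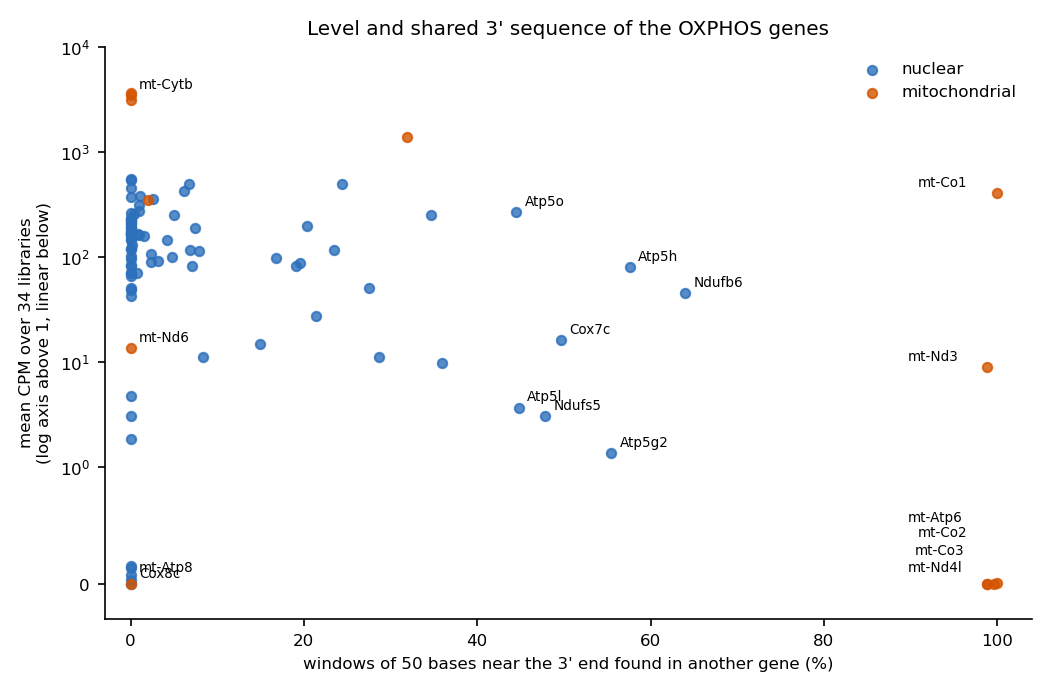
Share of the 50-base windows in the last 300 bases of each gene that also occur in another gene (horizontal axis, percent) against its mean level over the 34 libraries (vertical axis, CPM, log scale above 1 and linear below), with 1 point per gene, nuclear in blue and mitochondrial in orange. mt-Co1 and mt-Co2 lie at 100%, and mt-Cytb, mt-Nd1 and mt-Nd4, the mitochondrial genes with the highest levels, lie at 0%.

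Across the 8 groups, nuclear OXPHOS genes took 0.727% to 1.86% of the counts of a library and mitochondrial ones 0.565% to 2.45%. NTG libraries ranged from 0.727% to 0.983% for nuclear genes, with the lowest group median, and from 1.70% to 2.45% for mitochondrial genes, with the highest. Tau fibril libraries had the lowest mitochondrial shares, 0.565% to 0.613%, with nuclear shares of 1.22% to 1.45%. PS19 and NTG overlapped in both shares. The ratio of mitochondrial to nuclear counts, which needs no normalization, was 2.34 to 2.99 in NTG and 1.48 to 2.01 in PS19, 0.998 to 1.18 in Ikbkb+/+ and 0.627 to 0.754 in Ikbkb-/-. It was 0.908 to 1.07 in IkbkbWT and 0.594 to 0.789 in IkbkbCA, and 0.544 to 0.645 with vehicle and 0.422 to 0.465 with tau fibrils. In each of the 4 comparisons every case library thus lay below every control library. Levels were set side by side across comparisons that were normalized apart, and adult cells differ from cultured ones in preparation.

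Among nuclear genes, the highest mean over the 34 libraries in complex I was that of Ndufa2 (492 CPM, group means 302 to 624), an accessory subunit, and in complex II that of Sdhb (206 CPM, group means 126 to 356), the iron-sulfur subunit. Uqcrh, the hinge protein of complex III, averaged 553 CPM (349 to 706), Cox6c of complex IV 496 CPM (265 to 652) and Atp5g3, which encodes subunit c of the ATP synthase ring, 544 CPM (248 to 976). The mitochondrial mt-Nd4 (3661 CPM, 1503 to 6559) and mt-Cytb (3466 CPM, 1396 to 6263) stood well above these, and mt-Co1 averaged 408 CPM (330 to 616). Means of 66 of the 84 nuclear genes were above 20 CPM in every group, 29 of them with group means within 2 times of each other and 4 with means more than 4 times apart.

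Where a subunit has isoform genes, 1 of them held nearly all counts. Cox8a had 98.6% to 100% of the Cox8 counts of a library and Cox4i1 99.8% to 100% of Cox4i counts. Atp5g3 had 95.3% to 99.4% of Atp5g counts, although the 3 Atp5g genes encode the same mature protein. Atp5g3 shared no end window with another gene, while Atp5g1 shared some of its own and Atp5g2 over 40%. The Atp5g shares thus rest on the tags that could be assigned, and whether they follow isoform use was not tested. Cox6a2 was the isoform with the widest range. Its share of Cox6a counts was 6.53% to 16.3% in PS19, 3.13% to 10.4% in NTG and 0% to 3.93% in the cultured groups, the rest being Cox6a1, the general isoform. Cox6a2 lies at chr7:128205435-128206387 (GRCm38, minus strand) and shares exon sequence in antisense with the integrin gene Itgad, which had at most 3 counts in any library.

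**Figure D2:**
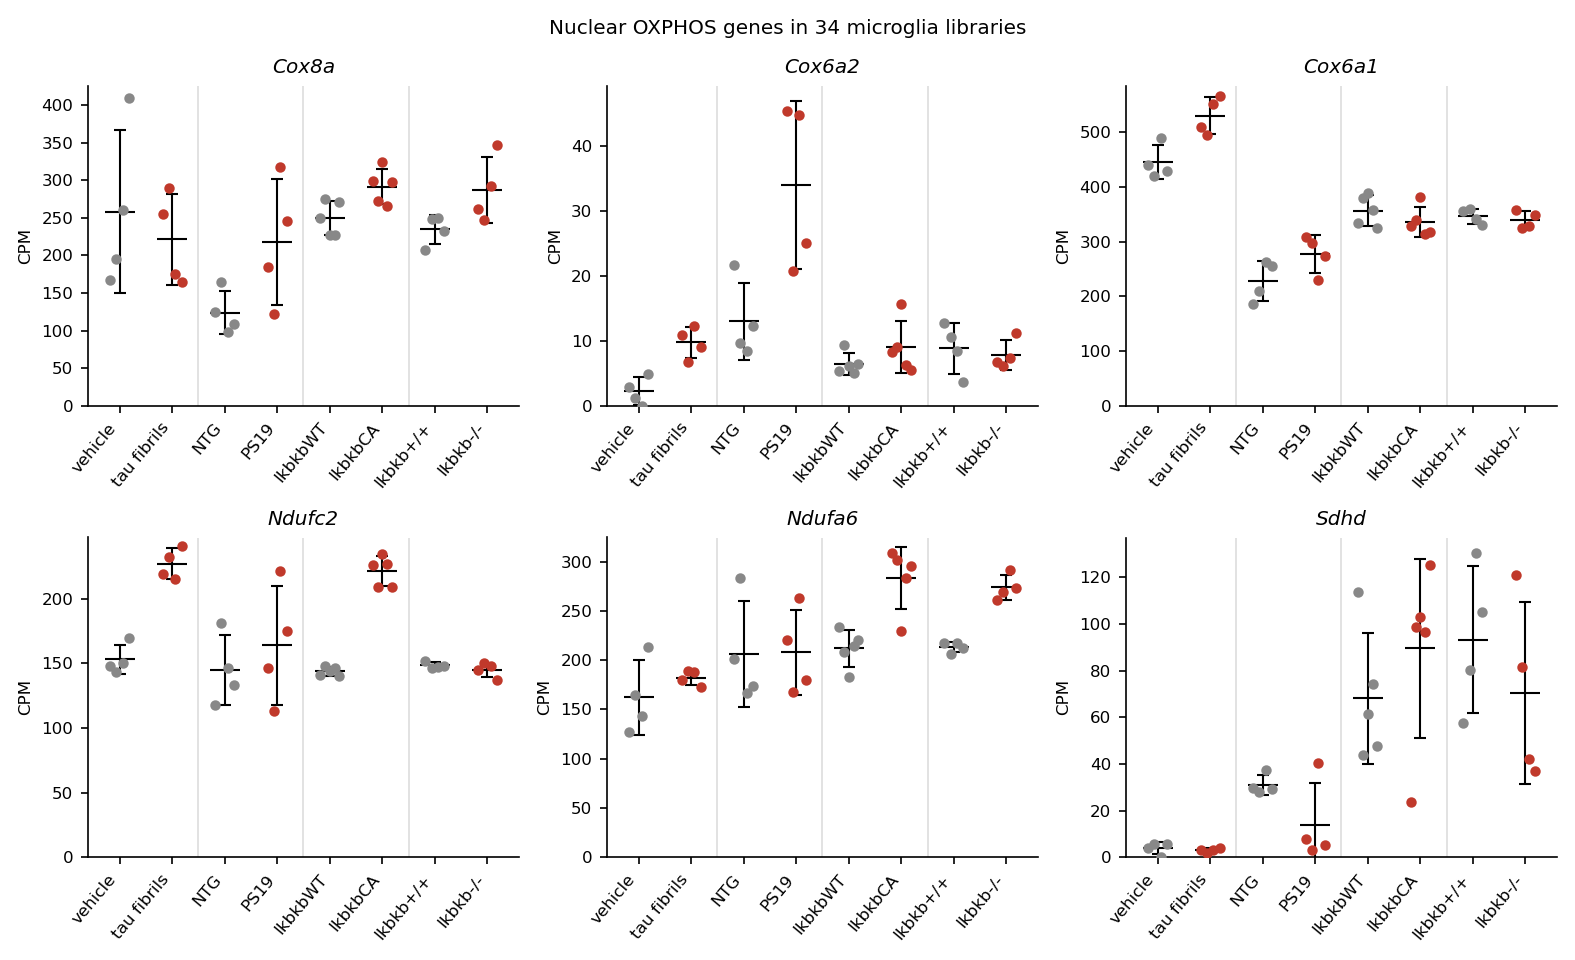
Level (CPM) of 6 nuclear OXPHOS genes, 1 panel each, in the 8 groups, with 1 point per library (grey for controls, red for cases), a bar at the group mean and whiskers of 1 SD. Cox6a2 reaches its highest levels in PS19, Ndufc2 is higher with tau fibrils and in IkbkbCA than in every library of their controls, and Sdhd differs widely between experiments.

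The same 5 mitochondrial genes, 4 of the 7 of complex I and the 1 of complex III, were called lower in the case group of the 3 culture comparisons, while mt-Nd6 of complex I had positive fold changes that did not pass the test. With tau fibrils, 5 of 7 tested fell and none rose, beside 15.4% of all genes tested called lower and 14.5% called higher. In IkbkbCA, 5 of 8 fell and none rose (7.16% and 7.31% of all genes), and in Ikbkb-/- 5 of 8 fell and none rose (6.96% and 7.64% of all genes). The called genes were mt-Nd1, mt-Nd2, mt-Nd4, mt-Nd5 and mt-Cytb each time. In PS19 none of 8 tested was called, where 0.0707% of all genes were called higher and 0% lower. Median log2 fold changes over the tested mitochondrial genes were -0.38 with tau fibrils, -0.47 in IkbkbCA, -0.61 in Ikbkb-/- and -0.41 in PS19, beside -0.011, -0.047, 0.00017 and 0.0042 over all genes tested. Scaling by total counts instead moved the median of all genes to -0.16 with tau fibrils (1057 of all genes higher and 2254 lower, against 1506 and 1602) and to -0.11 in IkbkbCA (753 and 1252, against 855 and 837), and the same mitochondrial genes were called lower, mt-Co1 as well with tau fibrils. The filter on low counts left out the 4 mitochondrial genes at 0, mt-Co2 and, with tau fibrils, mt-Nd3. These genes share transcripts and are not independent of each other. In bulk RNA, fewer cells of a type and less RNA per cell cannot be told apart.

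mt-Cytb had the lowest log2 fold change of the called mitochondrial genes with tau fibrils and in Ikbkb-/-. With tau fibrils it was at 1335, 1334, 1505 and 1410 CPM and with vehicle at 1851, 2276, 1965 and 2754 CPM, a log2 fold change of -0.66 ± 0.13 (SE, FDR = 0.00038). All tau fibril libraries lay below all vehicle libraries. In IkbkbCA the levels were 2166, 2368, 3115, 2562 and 2920 CPM and in IkbkbWT 3850, 3547, 3647, 3596 and 3698 CPM, a difference of -0.48 ± 0.10 (SE, FDR = 0.00816). Ikbkb-/- libraries were at 2592, 2511, 2483 and 2336 CPM and Ikbkb+/+ libraries at 4411, 4339, 4296 and 3836 CPM, a difference of -0.77 ± 0.081 (SE, FDR = 2.0e-06). The groups were apart in both Ikbkb comparisons as well, and by the widest margin in Ikbkb-/-. In PS19, mt-Cytb was at 4618, 4335, 5465 and 5674 CPM against 5195, 7516, 6224 and 6115 CPM in NTG (-0.32 ± 0.20 SE, FDR = 0.680), and the groups overlapped.

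mt-Nd1, a core subunit of complex I in the membrane arm, was at 1674, 1656, 1878 and 1475 CPM with tau fibrils against 2198, 1941, 2226 and 2222 CPM with vehicle (-0.36 ± 0.12 SE, FDR = 0.0282). Vehicle replicate 2 was the lowest of its group and still above every tau fibril library. IkbkbCA libraries held 2002, 2121, 3014, 2154 and 2493 CPM and IkbkbWT libraries 3489, 3376, 3217, 3166 and 3288 CPM (-0.49 ± 0.11 SE, FDR = 0.0121). IkbkbCA replicate 3 came closest to its controls without reaching them. In Ikbkb-/- it was at 2314, 2268, 2123 and 2110 CPM against 3712, 4038, 3697 and 3042 CPM in Ikbkb+/+ (-0.72 ± 0.092 SE, FDR = 2.0e-05), again with no overlap. The other called subunits of complex I also belong to the membrane arm. mt-Nd4 differed by -0.43, -0.41 and -0.58 with tau fibrils, in IkbkbCA and in Ikbkb-/- in turn, mt-Nd2 by -0.38, -0.57 and -0.64, and mt-Nd5 by -0.48, -0.46 and -0.54. In Ikbkb-/-, groups did not overlap for these 5 genes, which were picked because they were called, while mt-Nd5 overlapped with tau fibrils and mt-Nd4 in IkbkbCA. The share of all genes without overlap is not given here, so the lack of overlap only describes these genes.

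mt-Co1 and mt-Nd6 were not called in any comparison. mt-Co1 was at 338, 339.6, 335 and 308 CPM with tau fibrils and 391, 362, 414 and 328 CPM with vehicle (-0.18 ± 0.12 SE, FDR = 0.292). Its levels in IkbkbCA were 388, 411, 475, 439 and 436 CPM against 434, 398, 389, 430.2 and 432 CPM (0.046 ± 0.075 SE, FDR = 0.769), and in Ikbkb-/- 418, 369.9, 366 and 336 CPM against 321, 373, 378 and 365 CPM (0.046 ± 0.085 SE, FDR = 0.785). Case and control libraries overlapped in all 3. In PS19 the groups were apart for mt-Nd4, which was at 5136, 5307, 3684 and 4704 CPM against 5390, 7502, 6587 and 6759 CPM in NTG without passing the test (-0.48 ± 0.20 SE, FDR = 0.525). There the log2 fold change of mt-Co1 was -0.79 ± 0.30 (SE, FDR = 0.478). mt-Nd6, the only subunit gene on the other strand of the mitochondrial genome, had log2 fold changes of 0.29 ± 0.24 (SE, FDR = 0.397) with tau fibrils, 0.16 ± 0.17 (SE, FDR = 0.640) in IkbkbCA and 0.27 ± 0.21 (SE, FDR = 0.448) in Ikbkb-/-. It had few counts, at most 149 in any library, with group means of 6.27 to 28.5 CPM. It also overlaps mt-Nd5 in antisense, and whether counting used the strand is not known. mt-Nd3, whose end is nearly all shared with other genes, was tested outside the tau comparison and differed by 0.20 ± 0.79 (SE, FDR = 0.966) in PS19, -0.49 ± 0.25 (SE, FDR = 0.227) in IkbkbCA and -0.73 ± 0.33 (SE, FDR = 0.159) in Ikbkb-/-.

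The 5 called genes were lower relative to mt-Co1 of the same library in both Ikbkb experiments. Their summed counts were 20.0 to 23.2 times those of mt-Co1 in IkbkbCA and 27.1 to 34.1 times in IkbkbWT, and 22.6 to 25.5 times in Ikbkb-/- and 35.2 to 46.9 times in Ikbkb+/+. With tau fibrils the ratio was 17.6 to 18.5 against 18.1 to 27.3 with vehicle, and the groups overlapped. mt-Co1 counts only tags that could be placed, and the ratio does not show which side changed. The 5 genes were taken because they were called lower, and mt-Co1 was not called, in these same libraries. A lower ratio follows from that choice, so the ratios describe the difference and do not test it. Of the mitochondrial ribosomal RNAs, mt-Rnr2 had log2 fold changes of -0.35 ± 0.15 (SE, FDR = 0.0868) with tau fibrils, -0.044 ± 0.11 (SE, FDR = 0.856) in IkbkbCA and -0.048 ± 0.11 (SE, FDR = 0.836) in Ikbkb-/-, and mt-Rnr1 of -0.11, -0.23 and 0.10. None of these was called, and the drop of the subunit mRNAs was not tested against that of the ribosomal RNAs.

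**Figure D3:**
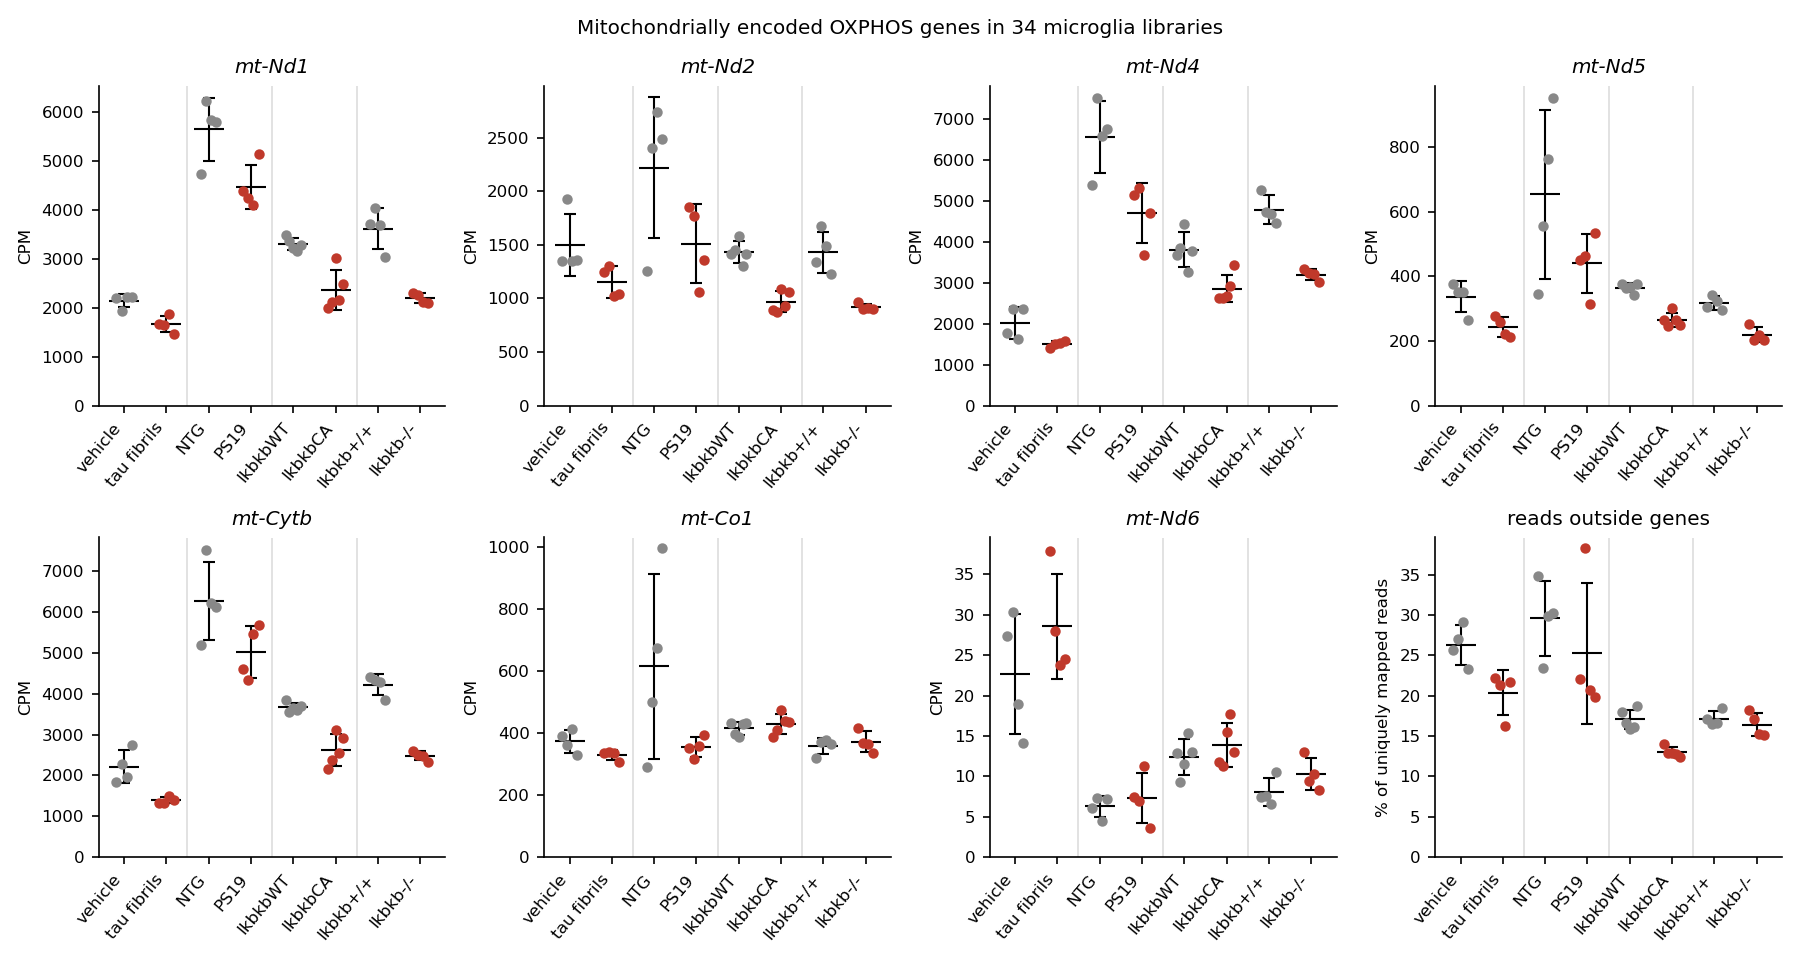
Level (CPM) of 7 mitochondrial genes, 1 panel each, and the share of uniquely mapped reads outside genes (percent) in the 8 groups, with 1 point per library (grey for controls, red for cases), a bar at the group mean and whiskers of 1 SD. mt-Nd1, mt-Nd2, mt-Nd4, mt-Nd5 and mt-Cytb lie lower in Ikbkb-/- than in Ikbkb+/+ in every library, while mt-Co1 overlaps.

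The size of the mitochondrial difference was compared between experiments in joint fits. Between the effects of IkbkbCA and Ikbkb-/-, no mitochondrial gene was called (3.12% of all genes were), the most apart being mt-Cytb at 0.30 (FDR = 0.27). None was called between tau fibrils and IkbkbCA either (9.42% of all genes). Other values moved along with these results, and their part in them was not tested unless a value is given. Reads outside annotated genes made up 23.3% to 29.1% of uniquely mapped reads in the vehicle group and 16.3% to 22.2% after tau fibrils, 12.4% to 13.99% in IkbkbCA and 15.9% to 18.7% in IkbkbWT, and overlapped between Ikbkb-/- (15.1% to 18.2%) and Ikbkb+/+ (16.5% to 18.4%). With that share as a covariate, an alternative chosen after the data were seen, 1 mitochondrial gene (mt-Cytb) of 7 was called with tau fibrils, where 5.97% of all genes were called higher and 3.14% lower. In IkbkbCA 0 of 8 were called (0.128% and 0.0598% of all genes) and in Ikbkb-/- 5 of 8 (6.53% and 6.23%). The median log2 fold changes of the mitochondrial genes in these fits were -0.21, -0.51 and -0.55 in turn. With tau fibrils and in IkbkbCA that share did not overlap between case and control, so it cannot be told apart from the group. Loss of calls in those fits does not show whether the mitochondrial genes depend on it. Border-associated macrophage markers summed to 424 to 746 CPM in Ikbkb-/- against 1541 to 1832 CPM in Ikbkb+/+ (5 of 5 tested markers fell), and in IkbkbCA 4 of 5 fell. Oligodendrocyte markers rose in Ikbkb-/- (6 of 7, summed 609 to 720 CPM against 339 to 449 CPM), and IkbkbWT replicate 3 stood apart in them with 5194 CPM. Without that library the same number of mitochondrial genes, 5, was called in IkbkbCA. Granulocyte and lymphocyte markers summed to 8.30 to 12.4 CPM in Ikbkb-/- and to 406, 92.8, 38.0 and 7.67 CPM in Ikbkb+/+ (2 of 2 tested fell, Cd3e at 0 in both groups), and to 17.3 to 85.5 CPM in IkbkbCA against 6.62 to 12.2 CPM in IkbkbWT (1 of 2 tested rose). Endothelial and mural markers summed to 204 to 264 CPM in Ikbkb-/- against 106 to 152 CPM in Ikbkb+/+ (of 3 tested, 1 rose and 1 fell). Without single libraries the number called was 2 to 4 with tau fibrils, with 2 without tau fibrils replicate 1 (mt-Cytb and mt-Nd5) and 3 without tau fibrils replicate 4 or vehicle replicate 2. It was 3 to 5 in IkbkbCA, with 3 without IkbkbCA replicate 1 or IkbkbWT replicate 1, and 5 in Ikbkb-/- each time.

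Nuclear OXPHOS genes did not move as a set in the culture comparisons. With tau fibrils 5 of 73 tested rose and 8 fell, in IkbkbCA 3 of 77 rose and 3 fell, and in Ikbkb-/- 1 of 78 rose and 2 fell, in each case a smaller share than that given for all genes. Median log2 fold changes over the tested nuclear genes were -0.0083, 0.022 and -0.0075. In PS19 none of 75 was called, the median was 0.21, and 63 log2 fold changes were above 0 and 12 below. Over all genes in PS19, 5718 of 11323 were above 0. Ndufc2 was called higher both with tau fibrils and in IkbkbCA, and Ndufa6 in both Ikbkb comparisons.

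**Figure D4:**
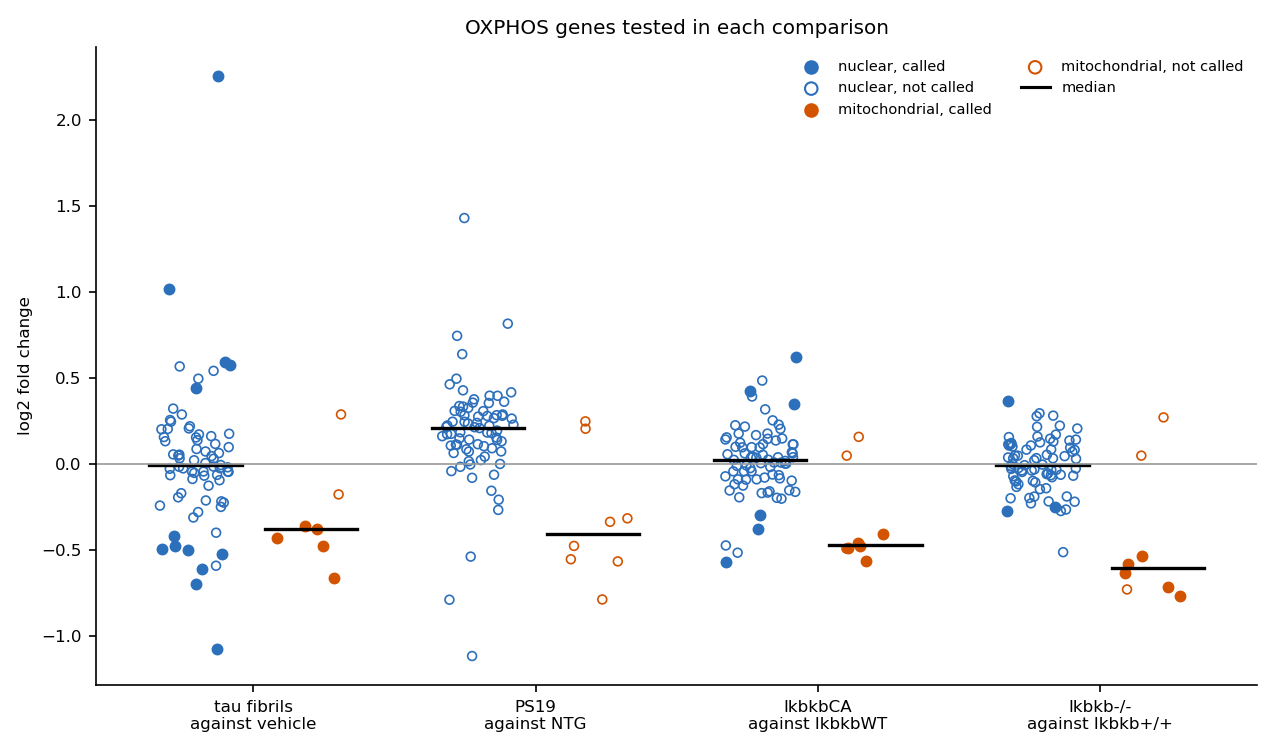
Log2 fold change (vertical axis), case over control, of each tested OXPHOS gene in the 4 comparisons, with 1 point per gene (nuclear in blue, mitochondrial in orange), filled where called at FDR under 0.05, and a black bar at the median. Nuclear genes spread around 0 in the 3 culture comparisons, and the called mitochondrial genes lie between -0.36 and -0.77.

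With tau fibrils, the nuclear gene with the highest fold change was Cox6a2. It was at 10.8, 6.76, 12.3 and 9.08 CPM with tau fibrils and 2.92, 1.22, 0 and 4.91 CPM with vehicle (2.25 ± 0.51 SE, FDR = 0.00125), few counts in every library. Ndufb4, an accessory subunit of complex I, was at 39.6, 32.5, 65.9 and 52.9 CPM against 18.7, 25.2, 30.7 and 19.1 CPM (1.01 ± 0.22 SE, FDR = 0.00091). For both genes every tau fibril library was above every vehicle library. Ndufb4 shares 21.4% of its end windows with Ndufb4c and other genes. Sdhb, the iron-sulfur subunit of complex II, was at 335, 378, 369.6 and 341 CPM against 206, 256, 202 and 280.4 CPM (0.59 ± 0.13 SE, FDR = 0.00102). Ndufc2, another accessory subunit of complex I, was at 219, 232, 215 and 241 CPM against 148, 143, 150.4 and 169.6 CPM (0.57 ± 0.12 SE, FDR = 0.0008). Tau fibril libraries were above all vehicle libraries for Ndufc2 and Sdhb too. The last gene that rose, Cox5a of complex IV (0.44 ± 0.13 SE, FDR = 0.00864), lies outside the naming rule and was named after its values were seen. Cox8a did not pass the test, with 255, 289.5, 175 and 165 CPM against 167, 196, 260.1 and 409.6 CPM (-0.22 ± 0.20 SE, FDR = 0.461).

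Of the genes that fell with tau fibrils, Atp5j, which encodes coupling factor 6 of the ATP synthase stalk, had the lowest fold change. It was at 40.8, 44.2, 21.8 and 21.4 CPM with tau fibrils and 40.2, 49.2, 52.5 and 131 CPM with vehicle (-1.08 ± 0.29 SE, FDR = 0.00507). Vehicle replicate 4 was far above the rest. Ndufa1, a small accessory subunit of complex I, was at 58.9, 62.2, 83.0 and 51.3 CPM against 70.0, 89.0, 62.9 and 199 CPM (-0.70 ± 0.24 SE, FDR = 0.0307). Uqcrfs1, the Rieske iron-sulfur protein of complex III, was at 108, 102, 90.9 and 75.3 CPM against 108, 109, 148 and 214 CPM (-0.61 ± 0.18 SE, FDR = 0.0102), and Ndufa4 of complex IV at 51.1, 56.4, 55.6 and 49.1 CPM against 73.5, 68.1, 55.3 and 111 CPM (-0.53 ± 0.18 SE, FDR = 0.0277). Vehicle replicate 4 was the highest library for all 4 of these genes, and for each of them the other vehicle libraries overlapped with those given tau fibrils. The others that fell were Ndufb5 (-0.51), Sdhc (-0.50, a membrane anchor of complex II), Atp5g3 (-0.48) and Ndufb6 (-0.42), of which Ndufb5, Sdhc and Ndufb6 were named after their values were seen.

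Vehicle replicate 4 was the highest of the 4 vehicle libraries for 53 of the 73 nuclear genes (72.6%) and for 2725 of all 10408 genes tested (26.2%). Without it, 7 nuclear genes rose, the 5 above with Cox5b and Ndufa13, and 0 fell, while 1472 of all genes rose and 1566 fell. All 8 nuclear genes that fell thus needed this library to pass the threshold, and 4 of the 5 mitochondrial ones did not. Some of the 8 needed other libraries too. Of 8 fits without 1 library each, Atp5j and Uqcrfs1 were called in 7, Ndufa1 and Ndufa4 in 4, and Ndufb6 only in the fit without vehicle replicate 2. With reads outside genes entered as a covariate, Ndufa1, Atp5j and Ndufa4 were called lower and no nuclear gene higher, beside 621 of all genes called higher and 327 lower. That share did not overlap between tau fibrils and vehicle and cannot be told apart from the treatment.

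**Figure D5:**
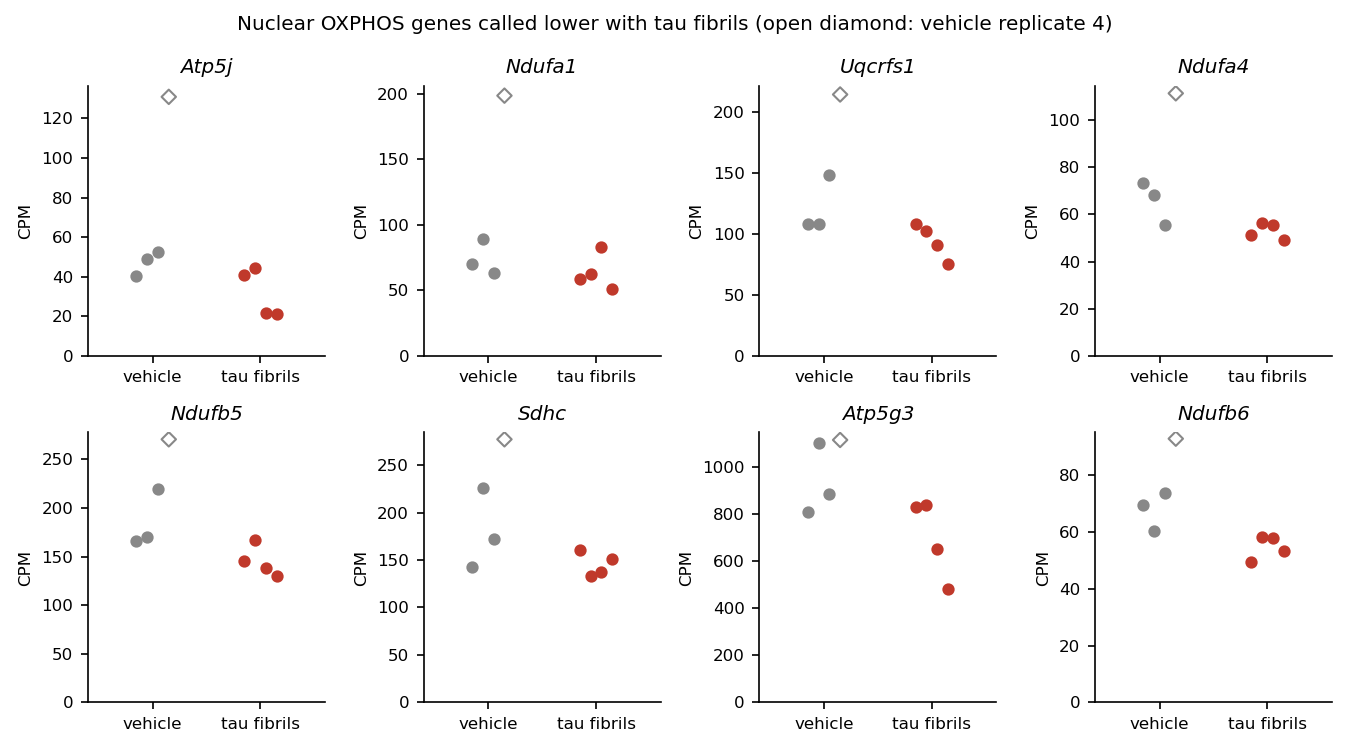
Level (CPM) of the nuclear OXPHOS genes called lower with tau fibrils, 1 panel each, in the 4 vehicle libraries (grey) and the 4 tau fibril libraries (red), with vehicle replicate 4 as an open diamond. In each panel vehicle replicate 4 is the highest library.

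In microglia isolated from PS19 mice no nuclear gene passed the threshold. At an unadjusted p under 0.05, 6 were higher and 1 lower, beside 4.95% and 3.68% of all genes. The 3 highest fold changes, none past the threshold, were those of Cox6a2, Cox8a and Atp5d, the delta subunit of ATP synthase. Cox6a2 was at 45.3, 20.8, 44.7 and 25.1 CPM in PS19 and 21.6, 9.64, 8.46 and 12.2 CPM in NTG (1.43 ± 0.35 SE, FDR = 0.232). Cox8a was at 185, 122, 317 and 246 CPM against 124, 165, 98.4 and 108 CPM (0.81 ± 0.28 SE, FDR = 0.436). Atp5d differed by 0.74 ± 0.23 (SE, FDR = 0.408). The lowest PS19 library was below the highest NTG library for both Cox6a2 and Cox8a. Cox6a2 was called by DESeq2, without the filter on low counts and without PS19 replicate 2, and Cox8a was called without the filter, where 127 of 22632 genes were called higher and 39 lower.

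The 3 lowest were Sdhd, a membrane anchor of complex II (-1.12 ± 0.61 SE, FDR = 0.639), Ndufb4 (-0.79 ± 0.29 SE, FDR = 0.469) and Atp5l, subunit g of ATP synthase (-0.54 ± 0.67 SE, FDR = 0.858). Sdhd was at 7.58, 2.93, 40.5 and 5.01 CPM in PS19 and 29.6, 27.8, 37.4 and 29.5 CPM in NTG. PS19 replicate 3 stood apart from the other PS19 libraries, and without it, or without the filter on low counts, Sdhd was called lower. For Ndufb4 every PS19 library was below every NTG library, and Atp5l was at 0 in PS19 replicate 2. Markers of granulocytes and lymphocytes (6 genes) summed to 375 to 2296 CPM in PS19 and 1453 to 2021 CPM in NTG, with the T and B cell markers Cd3e and Ms4a1 at 0 in every library of both. Reads outside genes ranged from 19.9% to 38.3% in PS19 and 23.4% to 34.8% in NTG, and the spread between replicates was the widest of the 4 comparisons (biological coefficient of variation 30.5%, against 10.9% to 23.5%).

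The 6 nuclear genes called in IkbkbCA all belong to complex I, which holds 35 of the 77 tested. Of these 35, 3 rose and 3 fell, beside 7.31% and 7.16% of all genes tested. Other settings also called genes of other complexes. Cox7a2 of complex IV rose with RLE size factors and by DESeq2, Uqcrfs1 of complex III rose by DESeq2, and Uqcrc1 of complex III fell by total counts. Ndufc2 rose most, at 226, 209, 235, 226 and 209 CPM in IkbkbCA and 141, 148, 144, 146 and 140.0 CPM in IkbkbWT (0.62 ± 0.063 SE, FDR = 5.3e-05). Ndufa6, an accessory subunit of the LYR family, was at 308, 301.3, 230.0, 283 and 295 CPM against 234, 208, 183, 214 and 221 CPM (0.42 ± 0.10 SE, FDR = 0.0121). Ndufb3, of the membrane arm, was at 97.2, 93.4, 107, 95.4 and 119.9 CPM against 77.2, 83.2, 87.5, 70.3 and 85.3 CPM (0.34 ± 0.092 SE, FDR = 0.0271). Every IkbkbCA library was above every IkbkbWT library for Ndufc2, with a gap wider than the range of either group, and the same held for Ndufb3 without such a gap. For Ndufa6, IkbkbCA replicate 3 lay within the IkbkbWT range. Ndufs8, a core iron-sulfur subunit, fell, at 64.0, 52.5, 41.0, 42.0 and 44.3 CPM against 83.1, 72.8, 58.1, 75.3 and 73.9 CPM (-0.57 ± 0.14 SE, FDR = 0.0148). Ndufv3 of the NADH-oxidizing module (-0.38 ± 0.082 SE, FDR = 0.00883) and Ndufb10 of the membrane arm (-0.30 ± 0.065 SE, FDR = 0.00944) fell by less, without overlap, while Ndufs8 overlapped through IkbkbCA replicate 1. Without IkbkbWT replicate 1, 2 nuclear genes rose and 0 fell, and with reads outside genes entered as a covariate 0 nuclear genes were called, beside 15 of all genes called higher and 7 lower. That share did not overlap between IkbkbCA and IkbkbWT and cannot be told apart from the genotype. Cox8a (0.22 ± 0.086 SE, FDR = 0.112) and Cox6a2 (0.48 ± 0.29 SE, FDR = 0.323) did not pass the test, and DESeq2 called Cox8a higher.

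In Ikbkb-/- the 3 called genes moved little. Ndufa6 was at 261, 269, 292 and 273 CPM against 217, 207, 217 and 212 CPM in Ikbkb+/+ (0.36 ± 0.073 SE, FDR = 0.00199). Atp5mpl, a small subunit of ATP synthase, was at 128, 128, 142 and 119 CPM against 158, 158, 166 and 145 CPM (-0.28 ± 0.083 SE, FDR = 0.0307), and Uqcr11 of complex III at 106, 102, 111 and 104 CPM against 116, 132, 126 and 128 CPM (-0.25 ± 0.079 SE, FDR = 0.0394). Without 1 library at a time, Ndufa6 was called in 8 of 8 fits, Atp5mpl in 2 (without Ikbkb+/+ replicate 4 or Ikbkb-/- replicate 3) and Uqcr11 in 1 (without Ikbkb+/+ replicate 1). Libraries were apart for Ndufa6 and Uqcr11, and for Atp5mpl as well. Ndufa6 rose in both Ikbkb comparisons. Cox8a (0.29 ± 0.10 SE, FDR = 0.0611) and Cox6a2 (-0.026 ± 0.32 SE, FDR = 0.971) were not called. Without the filter on low counts, or without Ikbkb-/- replicate 2, Cox8a was called higher.

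Ndufc2 was the 1 OXPHOS gene whose responses in IkbkbCA and Ikbkb-/- were called apart, beside 3.12% of all genes tested. Genes not called apart may still differ. In Ikbkb-/- it was at 145, 150.1, 148 and 137 CPM against 152, 146, 147 and 148 CPM in Ikbkb+/+ (-0.034 ± 0.074 SE, FDR = 0.825), and the groups overlapped. The difference of effects, IkbkbCA minus Ikbkb-/-, was 0.67 ± 0.085 (SE, FDR = 8.6e-05). Between tau fibrils and IkbkbCA the effects on Ndufc2 were not called apart (-0.13 ± 0.11, SE). Uqcrfs1 (-0.90, FDR = 0.0144), Ndufb5 (-0.62, FDR = 0.0297) and Atp5j (-1.19, FDR = 0.0455) were called apart there, with lower values for tau fibrils, beside 9.42% of all genes tested. All 3 are genes whose fall with tau fibrils needed vehicle replicate 4. Ndufb5 was named after its values were seen.

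Promoters were read where genes moved together or apart, as 250 bases before and 50 after the start, from RefSeq on GRCm38.p6, which had an entry for 66 of the 84 nuclear genes. The window of Atp5j is that of 1 of its annotated starts. Motifs of factors known to bind OXPHOS promoters were searched on both strands: GCGCATGC for NRF1, CCGGAAGT for the ETS family, which includes GABPA, and AAGATGGC for YY1, none of which overlaps another in letters. NRF1 letters were in 10 of the 66 promoters (15.2%) and in 3.05% of 27025 gene promoters, ETS letters in 5 (7.58%) and 4.31%, and YY1 letters in 9 (13.6%) and 3.19%, with any of them in 23 (34.8%) and 9.91%. The 66 promoters also differed in composition, with a median GC content of 57.2% and 19 CpGs against 52.7% and 7 over all gene promoters, and the NRF1 and ETS letters hold CpGs. The part of composition in these shares was not tested. The promoters of 4 genes are shown, with the motifs in capitals: Ndufc2 and Ndufa6, which rose in IkbkbCA, Atp5j, which fell with tau fibrils, and Cox8a. Ndufa6 (chr15:82354242-82354541, minus strand) holds the NRF1 letters, Cox8a (chr19:7217567-7217866, minus strand) holds the ETS letters at 2 places and Atp5j (chr16:84834927-84835226, minus strand) the YY1 letters. Ndufc2 (chr7:97399753-97400052, plus strand) holds none of the 3. A match describes letters and not binding, and Cox6a2 had no entry.
Ndufc2: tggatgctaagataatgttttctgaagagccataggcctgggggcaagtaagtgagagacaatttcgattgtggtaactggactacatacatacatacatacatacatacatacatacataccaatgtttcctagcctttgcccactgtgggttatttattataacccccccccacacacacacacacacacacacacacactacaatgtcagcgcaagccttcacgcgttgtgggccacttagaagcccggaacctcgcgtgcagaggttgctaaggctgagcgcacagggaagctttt
Ndufa6: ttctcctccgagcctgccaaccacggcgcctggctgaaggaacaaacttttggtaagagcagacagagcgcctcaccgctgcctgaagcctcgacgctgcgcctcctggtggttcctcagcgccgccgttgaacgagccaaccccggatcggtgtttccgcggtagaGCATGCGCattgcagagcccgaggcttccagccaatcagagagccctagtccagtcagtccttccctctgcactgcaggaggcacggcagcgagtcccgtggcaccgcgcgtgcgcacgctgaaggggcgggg
Atp5j: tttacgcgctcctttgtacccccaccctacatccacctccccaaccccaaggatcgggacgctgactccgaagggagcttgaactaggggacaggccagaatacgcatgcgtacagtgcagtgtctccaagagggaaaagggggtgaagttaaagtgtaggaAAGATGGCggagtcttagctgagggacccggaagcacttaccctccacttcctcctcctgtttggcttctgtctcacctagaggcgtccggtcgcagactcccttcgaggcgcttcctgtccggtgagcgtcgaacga
Cox8a: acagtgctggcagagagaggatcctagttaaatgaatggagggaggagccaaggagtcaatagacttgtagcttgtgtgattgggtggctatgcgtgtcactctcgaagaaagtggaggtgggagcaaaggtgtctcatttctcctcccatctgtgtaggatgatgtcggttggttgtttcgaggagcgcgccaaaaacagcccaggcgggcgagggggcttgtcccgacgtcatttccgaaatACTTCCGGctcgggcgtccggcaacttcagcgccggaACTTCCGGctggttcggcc

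Genes that build, feed and control the OXPHOS complexes were counted in lists. Of the assembly factors, which insert cofactors and join subunits, 3 of 44 tested rose and 2 fell with tau fibrils (median log2 fold change 0.084), 1 of 48 rose in IkbkbCA (0.041) and 2 of 48 rose in Ikbkb-/- (0.0064), with none called in PS19 (0.054). Of the enzymes of the citric acid cycle and the pyruvate dehydrogenase complex, none rose and 3 of 19 fell with tau fibrils (-0.19), 2 rose and 2 fell in IkbkbCA (0.0021), and none rose and 2 fell in Ikbkb-/- (-0.064). Idh2, the mitochondrial NADP-dependent isocitrate dehydrogenase, fell in IkbkbCA (-0.69 ± 0.11 SE, FDR = 0.00106) and in Ikbkb-/- (-0.94 ± 0.10 SE, FDR = 2.2e-06). Fh1, fumarase, fell in both as well (-0.32 ± 0.081 (SE, FDR = 0.0191) and -0.37 ± 0.10 (SE, FDR = 0.0164)). In PS19 no gene of this list was called, with a median of 0.098.

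Of 25 genes that copy, transcribe and process mitochondrial DNA and its RNA, 0 of 15 were called with tau fibrils (median -0.074), 2 of 21 rose in IkbkbCA (-0.039), 1 of 20 rose in Ikbkb-/- (-0.031) and 0 of 22 were called in PS19 (-0.26). Slirp, which with Lrpprc stabilizes mitochondrial mRNAs, rose in IkbkbCA (0.67 ± 0.10 SE, FDR = 0.00063) and in Ikbkb-/- (0.54 ± 0.092 SE, FDR = 0.00041), and Pnpt1, the mitochondrial polynucleotide phosphorylase, rose in IkbkbCA (0.68 ± 0.20 SE, FDR = 0.0399). Of 11 regulators of nuclear OXPHOS genes, 1 of 10 rose and 1 fell with tau fibrils (0.33). The one that fell was Ppargc1a, the coactivator PGC-1α (-1.15 ± 0.20 SE, FDR = 7.3e-05), and the one that rose was Hif1a, the hypoxia-inducible factor (0.36 ± 0.13 SE, FDR = 0.0378). Ppargc1a was at 14.7 to 26.7 CPM with tau fibrils and 42.6 to 50.1 CPM with vehicle, while group means in the other comparisons were 1.02 to 2.51 CPM. Markers of neurons and other glia also fell with tau fibrils. Whether the Ppargc1a RNA came from microglia was not tested. In IkbkbCA, Hif1a rose (0.89 ± 0.11 SE, FDR = 0.00021) and Nrf1 fell (-0.52 ± 0.14 SE, FDR = 0.0310), among 11 tested (-0.11). In Ikbkb-/-, Myc (-1.28 ± 0.27 SE, FDR = 0.00301), Ppargc1b (-1.10 ± 0.29 SE, FDR = 0.0162) and Gabpb2 (-0.41 ± 0.13 SE, FDR = 0.0478) fell, 3 of 10 tested (-0.10), and in PS19 none of 10 was called (-0.14).

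Of 7 genes for cytochrome c and for carriers and channels of ADP, ATP and phosphate, Cycs, cytochrome c, rose with tau fibrils (0.58 ± 0.21 SE, FDR = 0.0401) and Slc25a4, an ADP/ATP carrier (-0.79 ± 0.14 SE, FDR = 7.8e-05), and Vdac1, a channel of the outer membrane (-0.39 ± 0.13 SE, FDR = 0.0242), fell, with a median of -0.28. None of them was called in PS19 (0.18), IkbkbCA (0.051) or Ikbkb-/- (-0.0014). Of 78 genes for mitochondrial ribosomal proteins, which translate the mitochondrial subunits, 8 of 73 rose and 1 fell with tau fibrils (0.14), 5 of 74 rose and 1 fell in IkbkbCA (0.061), 2 of 74 rose and 2 fell in Ikbkb-/- (0.027) and none of 74 was called in PS19 (0.14). No list was tested as a whole, and the shares called are to be read beside those of all genes in the same comparison. Genes named from these lists lie outside the naming rule and were named after their values were seen, and not every called gene is named. With tau fibrils Mrpl52 had the highest (1.05 ± 0.17 SE, FDR = 1.8e-05) and Mrps6, the one that fell, the lowest (-0.74 ± 0.17 SE, FDR = 0.00128) log2 fold change of the called ribosomal genes.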

How the data were processed

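RNA of 34 mouse microglia samples was measured with the QuantSeq 3′ FWD kit. The 24 cortex samples of the series were not analysed here. The authors processed reads with the Lexogen QuantSeq 2.2.3 pipeline on the BlueBee platform against GRCm38 with GENCODE annotation, and the labels' processing notes also name STAR, RSEM, edgeR and limma. The deposited tables hold whole-number read counts on genes, not normalized, and end with totals of reads outside genes, ambiguous reads and reads mapped to several places. Total counts were 1672052 to 8349128 per library.

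Groups came from the sample labels. Symbols and positions came from GENCODE M21 (GRCm38) and promoters from RefSeq (GRCm38.p6). In R 4.3.3, each comparison was fitted on the libraries of its 2 groups with edgeR 4.0.16 (TMM, filterByExpr with a minimum count of 10 and minimum total of 15, quasi-likelihood test). A gene was called where its Benjamini-Hochberg FDR over all genes tested was under 0.05. Differences of effects were tested in joint fits of 18 libraries. The SE of a fold change followed from its F statistic. Scripts were tested on simulated data. The genes, lists, tests and naming rule were chosen with earlier results of these data known.

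The rule named Cox8a, Cox6a2, the mitochondrial genes, the isoform genes, the gene with the highest level of each complex, and in each comparison the called nuclear genes with the 4 highest and 4 lowest fold changes, or the 3 highest and 3 lowest tested ones where none was called. Alternatives were RLE size factors, total counts, library sizes without the mitochondrial genome, DESeq2 1.42.0, limma-voom (limma 3.58.1), no filter, a minimum of 10 counts per library, 1 fit of the 18 Ikbkb libraries, an age term in PS19, and each library left out in turn. Reads outside genes as a covariate was chosen after seeing the data. No 2 of the 56 pairs of libraries within groups held identical values.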

Additional observations from a re-analysis of the deposited data

Results flagged for a closer look

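Among 134 groups of 4 or 5 libraries, 8 held a value whose gap to its nearest neighbour was large for the range of the group, where chance gives about 1 in 20. With tau fibrils, mt-Co1 was lowest in replicate 4 at 308 CPM. In the vehicle group, Atp5j was highest in replicate 4 at 131 CPM, and replicate 2 stood apart at 1941 CPM for mt-Nd1, below the rest, and at 1932 CPM for mt-Nd2, above the rest. In PS19, Sdhd was highest in replicate 3 at 40.5 CPM and Atp5l lowest in replicate 2 at 0 CPM. The nuclear OXPHOS genes took 0.983% of the counts of NTG replicate 2, more than in the other NTG libraries. Ndufb10 was at 93.4 CPM in IkbkbCA replicate 1, above the other IkbkbCA libraries.

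The effects of a pair of comparisons were called apart by a test of the difference for 4 genes. Of all genes tested, 3.12% were called apart between IkbkbCA and Ikbkb-/- and 9.42% between tau fibrils and IkbkbCA. The effect on Ndufc2 was higher by 0.67 on the log2 scale in IkbkbCA than in Ikbkb-/-. Between tau fibrils and IkbkbCA the difference was -0.90 for Uqcrfs1, -0.62 for Ndufb5 and -1.19 for Atp5j. The last 3 genes were called lower with tau fibrils only while vehicle replicate 4 was in the fit.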

How the results depend on the processing

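Of the counts of called genes and the medians, 258 values under alternatives stayed near the reported ones and 24 did not. With reads outside genes as a covariate, 3 nuclear and 1 mitochondrial genes were called with tau fibrils (mitochondrial median -0.21), beside 621 of all genes higher and 327 lower, and 0 nuclear and 0 mitochondrial ones in IkbkbCA (mitochondrial median -0.51), beside 15 of all genes higher and 7 lower. In both comparisons that share did not overlap between case and control and cannot be told apart from the group. Total counts gave a mitochondrial median of -0.53 with tau fibrils, a nuclear median of -0.037 in IkbkbCA and 5 called nuclear genes in Ikbkb-/-. DESeq2 called 1 nuclear gene in PS19, 10 in IkbkbCA and 5 in Ikbkb-/-. Without a filter, 3 nuclear genes were called in PS19 and 2 mitochondrial ones in IkbkbCA, where more genes were tested, and the fit of 18 libraries called 1 nuclear gene in Ikbkb-/-. The cause was not tested for the other settings. Leaving out 1 library at a time gave 7 to 12 called nuclear and 2 to 4 mitochondrial genes with tau fibrils, 0 to 1 nuclear in PS19, 2 to 8 nuclear and 3 to 5 mitochondrial in IkbkbCA and 1 to 2 nuclear in Ikbkb-/-.

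For the named genes, 905 values kept their direction and side of the threshold, 85 lost a call, 11 gained one and 14 changed sign, all of the latter in genes that were not called. mt-Nd3 in PS19 was -0.79 by limma-voom and -1.23 with the covariate, mt-Co1 in IkbkbCA -0.011 by total counts and Cox6a2 in Ikbkb-/- 0.19 by limma-voom. Leaving out 1 library gave -0.37 to 0.090 for Cox8a with tau fibrils, -1.58 to 0.61 for mt-Nd3 and -0.054 to 0.48 for mt-Nd6 in PS19, -0.35 to 0.15 for Cox6a2 and -0.014 to 0.087 for mt-Co1 in Ikbkb-/-. Genes near 0 fold change and genes with few counts, mt-Nd3, mt-Nd6 and Cox6a2, are limited by depth, and 4 or 5 libraries per group limit every call.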
